A study of Mus musculus with 20 samples.

Results

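The CC chemokines examined here are 10 genes, Ccl2, Ccl3, Ccl4, Ccl5, Ccl6, Ccl7, Ccl8, Ccl9, Ccl11 and Ccl12, taken by name from the 43422 genes with values in each library. RNA was sequenced from the abdominal aorta of 20 mice labelled as C57BL/6 (C57Bl/6NCrl in the methods) and 6 months old, with 5 mice in each of 4 groups. WT mice and Plod1-/- mice, a whole-body knockout of lysyl hydroxylase 1 (LH1), received saline or, at 1000 ng/kg/min, angiotensin II (Ang II) by pump for 14 days. Each library came from a different mouse by its label. The genotypes were littermates, and the methods give a younger age at pump implantation than the labels do. Ang II raises blood pressure and is used in mice to bring about dissecting abdominal aortic aneurysm. Levels are in FPKM, sequenced fragments scaled to the length of the transcript and the size of the library. Differences between groups are differences of log2(FPKM + 1), fitted with limma across all genes that passed a filter of 1 FPKM in at least 5 of the mice compared. A gene was called changed where its Benjamini-Hochberg adjusted p was below 0.05 and the log2 difference beyond 1 in size.

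CC chemokines are small secreted proteins that bind G protein-coupled receptors on leukocytes and guide their movement into tissue. The monocyte chemoattractant proteins CCL2, CCL7 and CCL12 draw monocytes through CCR2, and mouse CCL8, of the same family, acts mainly through CCR8. CCL3, CCL5, CCL6 and CCL9 bind CCR1, CCL4 is a close relative of CCL3, and CCL11 (eotaxin) attracts eosinophils through CCR3. In the aortic wall chemokines can come from macrophages, fibroblasts, smooth muscle cells and endothelium.

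All 10 genes lie on chromosome 11 (GRCm38) in a pair of stretches. Ccl2, Ccl7, Ccl11, Ccl12 and Ccl8 follow each other from 82035571 to 82116799, and Ccl5, Ccl9, Ccl6, Ccl3 and Ccl4 from 83525778 to 83664683. Ccl2 overlaps Gm17268 on the other strand, which reached at most 1.16 FPKM, and Ccl6 overlaps E230016K23Rik, which reached at most 0.731 FPKM. The library kit does not record strand, so reads in these overlaps cannot be told apart. How reads were divided between related members was not tested.

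The 250 bases before the start were in the RefSeq promoter table (GRCm38.p6) for Ccl3, Ccl6, Ccl8, Ccl9 and Ccl12, and the promoters of Ccl2, Ccl4, Ccl5, Ccl7 and Ccl11 are only named. The first pair shown is Ccl8 with Ccl12, neighbours on the plus strand of which Ccl8 and not Ccl12 was called in WT mice, and the second is Ccl6 with Ccl9, neighbours on the minus strand with similar profiles. They lie at chr11:82114935-82115184 (Ccl8), chr11:82101595-82101844 (Ccl12), chr11:83593088-83593337 (Ccl6) and chr11:83578637-83578886 (Ccl9), each written 5′ to 3′ on the strand of its gene. Capitals mark TATAAA on either strand and every run of the greatest length that a pair shares, and in Ccl9 overlapping TATAAA matches on the 2 strands form 1 capital run.
Ccl8: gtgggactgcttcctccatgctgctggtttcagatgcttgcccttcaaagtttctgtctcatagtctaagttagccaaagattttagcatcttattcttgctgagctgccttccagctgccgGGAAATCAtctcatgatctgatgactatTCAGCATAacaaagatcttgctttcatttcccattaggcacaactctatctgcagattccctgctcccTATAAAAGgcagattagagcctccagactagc
Ccl12: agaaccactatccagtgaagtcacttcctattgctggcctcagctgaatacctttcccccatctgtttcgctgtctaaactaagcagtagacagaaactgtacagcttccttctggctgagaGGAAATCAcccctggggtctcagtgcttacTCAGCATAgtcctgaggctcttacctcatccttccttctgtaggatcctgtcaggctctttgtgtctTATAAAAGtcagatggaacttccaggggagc
Ccl6: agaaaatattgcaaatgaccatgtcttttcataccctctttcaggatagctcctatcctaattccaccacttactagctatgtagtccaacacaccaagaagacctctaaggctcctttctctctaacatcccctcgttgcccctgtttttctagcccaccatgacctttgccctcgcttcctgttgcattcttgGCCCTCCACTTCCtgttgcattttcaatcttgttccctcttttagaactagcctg
Ccl9: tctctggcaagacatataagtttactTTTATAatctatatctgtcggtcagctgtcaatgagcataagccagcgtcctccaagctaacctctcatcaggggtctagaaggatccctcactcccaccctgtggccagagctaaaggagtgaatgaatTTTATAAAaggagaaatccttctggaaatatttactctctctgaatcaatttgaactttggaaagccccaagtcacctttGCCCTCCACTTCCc

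TATAAA began 32 bases before the start of Ccl8 and 31 bases before that of Ccl12. The pair shares 3 runs of 8 bases and none longer, of which 1 holds that TATAAA. GGAAATCA began 128 bases before the start in both genes, and TCAGCATA 100 bases before in Ccl8 and 98 in Ccl12. Of 32851 promoter windows of this length, 12.4% held TATAAA on either strand, 0.983% held GGAAATCA, 0.481% TCAGCATA and 1.51% TATAAAAG. TATAAAAG was in 3 of the 5 member windows, those of Ccl8, Ccl12 and Ccl9. Ccl9 also shared a longer run, of 9 bases, with Ccl8 and with Ccl12. Aligned end to end, the Ccl8 and Ccl12 windows were identical in 57.5% of columns, against 48.1% to 54.2% for the other 9 pairs of the 5 windows. Ccl6 and Ccl9 were identical in 50% and shared a run of 13 bases found in 0.0152% of windows, which began 55 bases before the start of Ccl6 and 14 bases before that of Ccl9. The pattern TGANTCA, which is the AP-1 site where N is C or G, was searched on either strand. It was found in the Ccl9 window and in 6.75% of all windows. In Ccl9 the match reads TGAATCA, with A at N, and so is not that site. These matches describe sequence and do not show that a factor binds.

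Plod1 stood at 22.8 to 29.7 FPKM in the WT libraries and did not exceed 0.0415 FPKM in any Plod1-/- library. Xist, an RNA of female cells, was at 15.1 FPKM in saline replicate 5 and 7.93 FPKM in Ang II replicate 1 of the Plod1-/- mice, and at 0.0328 FPKM or less in the other 18 libraries, whereas the methods name males only. Results are therefore also given without these 2 libraries. The 5 smooth muscle markers, which define the tissue, summed to 2257 to 20347 FPKM. Most of this sum was Acta2, at a mean of 14043 of 16472 FPKM in saline-treated WT mice. Tagln was low, with group means of 4.08 to 9.35 FPKM. Fat markers summed to 16 to 398 FPKM in saline-treated and 630.2 to 4258 FPKM in Ang II-treated WT mice, where mitochondrial RNA made up 8.37% to 14.6% and 14.6% to 29.1% of the FPKM. Their part in the results was not tested. In tissue RNA, fewer cells of a type and less RNA per cell cannot be told apart.

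The first comparison asked how Ang II changed the CC chemokines in mice without LH1. In Plod1-/- mice 8 of the 10 members were called higher under Ang II, and 8.38% of the 12333 genes tested were called higher. The members called were Ccl2, Ccl7, Ccl12, Ccl8, Ccl3, Ccl4, Ccl6 and Ccl9, while Ccl5 and Ccl11 were not called. The median log2 difference was 3.30 over the members and 0.053 over all genes tested. In 7 members every Ang II-treated mouse was above every saline-treated mouse, and 29.2% of all genes tested had groups without overlap. Ccl3 and Ccl4 passed the filter mainly through the Ang II-treated mice. Summed over the 10 genes, the level was 62.2 ± 40.7 FPKM under saline and 618 ± 195 FPKM under Ang II (SD, n = 5 each).

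**Figure D1:**
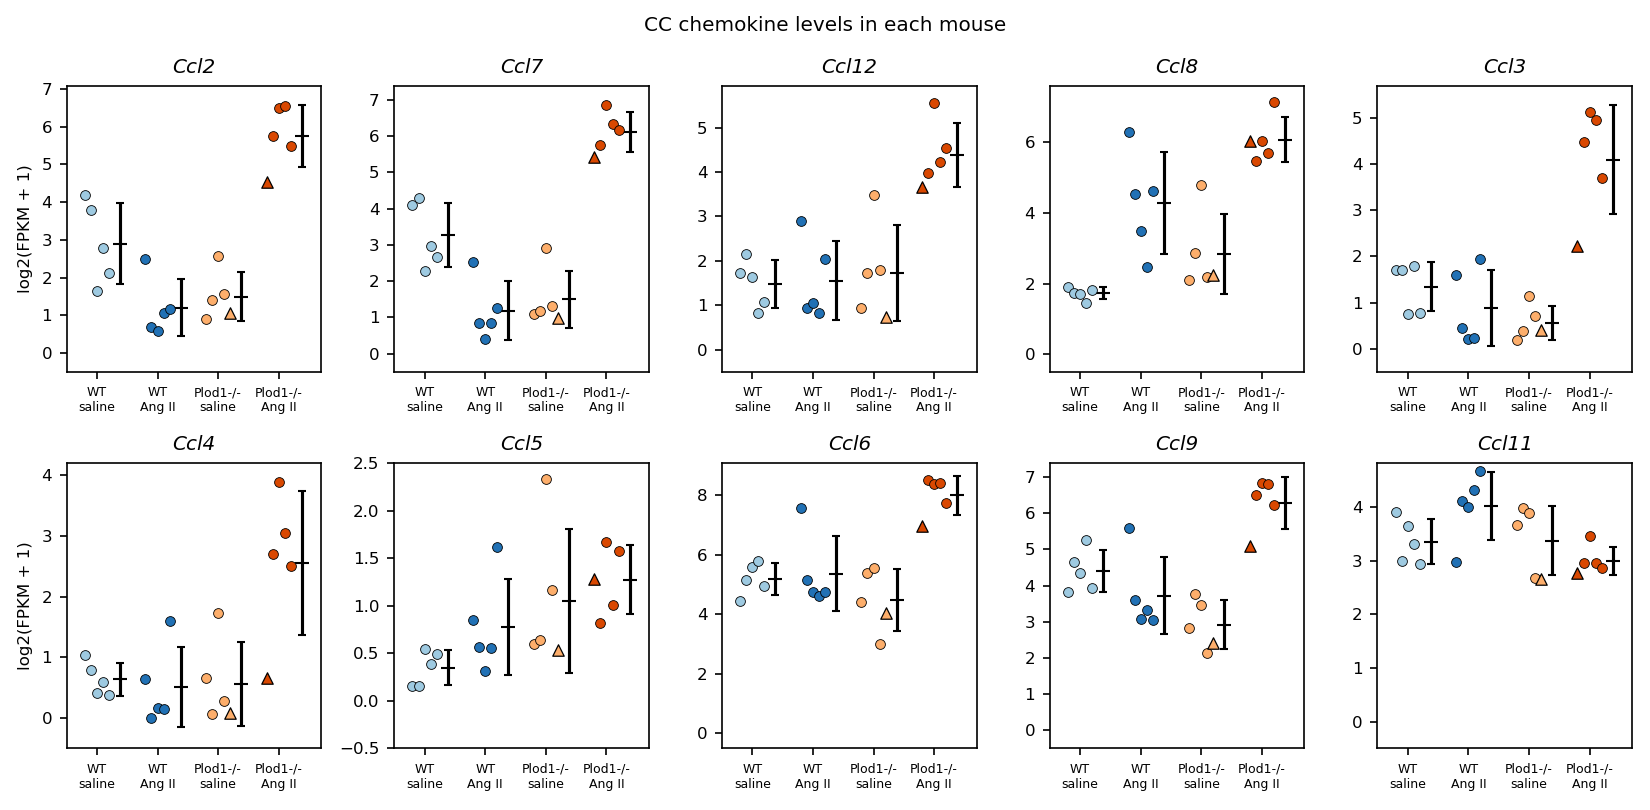
Level of each CC chemokine in each mouse, as log2(FPKM + 1) on the vertical axis, in the 4 groups of 5 mice, with bars for mean ± SD and triangles for the 2 libraries with Xist RNA. For Ccl2, Ccl7, Ccl12 and Ccl3 the Ang II-treated Plod1-/- mice lie above all other mice, and for Ccl11 they lie within the range of the others.

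Ccl2, the principal attractant of CCR2-positive monocytes, was at 0.863, 1.63, 4.92, 1.94 and 1.1 FPKM in saline-treated Plod1-/- mice, replicates 1 to 5 in order. Under Ang II it was at 22.1, 52.5, 89.1, 92 and 43.8 FPKM. The lowest Ang II value, from the library with Xist RNA, exceeded the highest saline value, and the log2 difference was 4.26 ± 0.42 (SE, adjusted p = 5.53e-05 by limma). Ccl7, which encodes another CCR2 ligand, was at 1.14, 1.26, 6.47, 1.49 and 0.98 FPKM under saline and 41.6, 52.9, 115, 79.6 and 70.5 FPKM under Ang II. These groups were also apart, by 4.61 ± 0.38 (SE, adjusted p = 3.21e-05 by limma), the largest log2 difference of the 10. Ccl7 was 0.767 to 1.32 times Ccl2 in saline-treated and 0.866 to 1.88 times Ccl2 in Ang II-treated Plod1-/- mice.

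Ccl12, a mouse CCR2 ligand, was at 0.915, 2.32, 10.1, 2.48 and 0.664 FPKM in saline-treated and 11.7, 14.8, 45.8, 17.7 and 22.5 FPKM in Ang II-treated Plod1-/- mice. Saline replicate 3 came close to the lowest Ang II value without reaching it, and the log2 difference was 2.66 ± 0.51 (SE, adjusted p = 0.0020 by limma). Ccl8, at the end of the same stretch, was at 3.3, 6.33, 26.9, 3.57 and 3.77 FPKM under saline and 64.6, 43.7, 64.6, 50.7 and 140.0 FPKM under Ang II. Again the groups did not overlap, with a difference of 3.23 ± 0.51 (SE, adjusted p = 6.96e-04 by limma). Ang II replicate 5 was the highest of its group for Ccl8 and for no other member.

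Among the CCR1 ligands and Ccl4, Ccl3 was at 0.137, 0.308, 1.19, 0.641 and 0.326 FPKM under saline and 3.66, 21.3, 33.8, 29.9 and 11.9 FPKM under Ang II. It did not overlap, and the log2 difference was 3.53 ± 0.49 (SE, adjusted p = 3.30e-04 by limma). Ccl4, its neighbour, was at 0.585, 0.051, 2.31, 0.212 and 0.0541 FPKM and 0.583, 5.49, 13.8, 7.29 and 4.67 FPKM, and rose by 2.0 ± 0.54 (SE, adjusted p = 0.0123 by limma). Here the groups overlapped, since Ang II replicate 1 was below saline replicates 1 and 3. Ccl6, a chemokine of mouse myeloid cells, was at 20.3, 40.3, 45.3, 7.07 and 15.6 FPKM and 123, 358, 332, 334 and 211 FPKM. It was the most abundant member in every Ang II-treated Plod1-/- mouse, and rose by 3.51 ± 0.48 (SE, adjusted p = 3.15e-04 by limma). Ccl9, a CCR1 ligand, was at 6.1, 12.6, 10.1, 3.37 and 4.37 FPKM and 33.1, 89.3, 114, 112 and 74.1 FPKM, and rose by 3.37 ± 0.39 (SE, adjusted p = 1.36e-04 by limma). Neither Ccl6 nor Ccl9 overlapped between the groups.

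Ccl5 (RANTES), made by T cells and natural killer cells among others, was at 0.512, 0.561, 4.05, 1.24 and 0.446 FPKM in saline-treated and 1.44, 0.769, 2.2, 1.0 and 1.99 FPKM in Ang II-treated Plod1-/- mice. The values were interleaved, with a log2 difference of 0.22 ± 0.33 (SE, adjusted p = 0.622 by limma) and a 95% confidence interval of -0.52 to 0.96. The 8 markers of T and natural killer cells were all below the filter, and summed to 0.677 to 8.57 FPKM under saline and 2.19 to 5.86 FPKM under Ang II. Saline replicate 3 was highest of its group for both Ccl5 and these markers. Ccl11 was at 11.7, 14.9, 13.8, 5.44 and 5.34 FPKM and 5.79, 6.73, 9.96, 6.77 and 6.33 FPKM. Its groups overlapped, with a difference of -0.38 ± 0.28 (SE, adjusted p = 0.302 by limma) and a 95% confidence interval of -1.0 to 0.24.

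Without both libraries with Xist RNA the same 8 members were called, with log2 differences of 2.35 (Ccl4) to 4.65 (Ccl7). Each call held in every fit that left out 1 mouse, except that Ccl4 was below the filter in 5 of 10 such fits, including the one without saline replicate 3, and could not be tested there. Leukocyte markers moved with these chemokines. Of 10 monocyte and macrophage markers 9 were tested and 9 called higher, and the list summed to 91.9 to 379.9 FPKM under saline and 869 to 4795 FPKM under Ang II. Of 6 neutrophil markers 5 were tested and 5 called higher, with sums of 1.35 to 3.02 and 156 to 723 FPKM. Itgam of the first list and Csf3r, Cxcr2 and Retnlg of the second were below 1 FPKM in every saline-treated mouse and reached the filter through the Ang II-treated mice alone, so that a difference was built into being tested. All 3 red blood cell markers were called higher, and all 5 smooth muscle markers were called lower. Of 4 endothelium markers Kdr and Cdh5 were called higher, while Pecam1 (-0.47) and Vwf (0.057) were not called. The endothelium sums overlapped, at 43.7 to 135 FPKM under saline and 30.7 to 130 FPKM under Ang II. Of 4 resident macrophage markers Cd163 and F13a1 were called higher, and Lyve1 (0.12) and Folr2 (0.99) were not called. Of 5 fat markers only Adipoq was called, and it was higher. Ang II replicate 1, the lowest of its group for 8 members, also had the lowest monocyte and macrophage sum (869 FPKM) and the highest smooth muscle sum (16611 FPKM, against 2257 to 6104 FPKM in the other 4). The part of these cells in the chemokine levels was not tested.

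The same comparison was made in WT mice. Of the 8 members tested, Ccl8 was called higher and Ccl2 and Ccl7 lower under Ang II, and 6.38% of the 11994 genes tested were called higher and 2.28% lower. The median log2 difference was -0.19 over these members and -0.14 over all genes. Only Ccl8 had groups without overlap, as had 17.3% of all genes tested.

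Ccl8 was at 2.77, 2.31, 2.24, 1.75 and 2.53 FPKM in saline-treated and 78, 22.3, 10.2, 4.5 and 23.4 FPKM in Ang II-treated WT mice, replicates 1 to 5 in order. The saline values were close together, the Ang II values spread 17.3-fold, and the log2 difference was 2.56 ± 0.54 (SE, adjusted p = 0.00623 by limma). Ccl2 was at 17.1, 12.8, 2.14, 5.85 and 3.31 FPKM under saline and 4.63, 0.623, 0.506, 1.1 and 1.24 FPKM under Ang II. The groups overlapped, since Ang II replicate 1 was above saline replicates 3 and 5. Ccl2 changed by -1.70 ± 0.50 (SE, adjusted p = 0.0229 by limma), and the call was lost with no filter on low values (limma adjusted p = 0.0718) and without saline replicate 2 or Ang II replicate 2, 3 or 5 (limma adjusted p up to 0.0594). Ccl7 was at 16.3, 18.5, 3.87, 6.87 and 5.38 FPKM and 4.78, 0.797, 0.336, 0.783 and 1.41 FPKM. Of the Ang II values only replicate 1 reached into the saline range, and the difference was -2.09 ± 0.46 (SE, adjusted p = 0.00703 by limma).

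The other members were not called in WT mice. Ccl6 was at 20.8, 34.5, 47.1, 54.5 and 29.7 FPKM under saline and 188, 34.7, 25.6, 23.2 and 25.6 FPKM under Ang II, with a log2 difference of 0.17 ± 0.51 (SE, adjusted p = 0.797 by limma). Ccl9 was at 13.1, 24, 19.5, 37.2 and 14.3 FPKM and 46.9, 11.2, 7.43, 8.97 and 7.26 FPKM, with a difference of -0.68 ± 0.46 (SE, adjusted p = 0.249 by limma). For both genes Ang II replicate 1 was above every other WT mouse. Without it Ccl9 had a difference of -1.14 and was called (limma adjusted p = 0.0127), and Ccl6 had one of -0.38. Ccl12 was at 2.29, 3.44, 2.13, 0.762 and 1.09 FPKM and 6.45, 0.925, 1.07, 0.779 and 3.09 FPKM, a difference of 0.071 ± 0.40 (SE, adjusted p = 0.894 by limma). Ccl11 was at 14, 6.93, 11.6, 8.94 and 6.63 FPKM and 6.91, 16.5, 15, 19 and 24.5 FPKM. In Ang II replicates 2 to 5 it was above all saline values and in replicate 1 it was low, and the difference was 0.66 ± 0.29 (SE, adjusted p = 0.0914 by limma).

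Ccl3, Ccl4 and Ccl5 were low in WT mice. Ccl3 was at 2.27, 2.27, 0.674, 2.48 and 0.716 FPKM under saline and 2.02, 0.37, 0.15, 0.182 and 2.85 FPKM under Ang II, a log2 difference of -0.46 ± 0.37 (SE, adjusted p = 0.333 by limma). Ccl4, at 1.04, 0.728, 0.335, 0.507 and 0.297 FPKM and 0.558, 0, 0.116, 0.106 and 2.02 FPKM, was below the filter. So was Ccl5, at 0.113, 0.116, 0.461, 0.31 and 0.408 FPKM and 0.806, 0.48, 0.24, 0.472 and 2.07 FPKM. Both overlapped between the groups, and exact two-sided permutation tests gave p = 0.675 for Ccl4 and p = 0.0794 for Ccl5, among 5 such tests of genes below the filter, without adjustment.

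WT Ang II replicate 1 was the highest of its group for 6 members, Ccl2, Ccl6, Ccl7, Ccl8, Ccl9 and Ccl12, and the lowest for Ccl11. Its monocyte and macrophage markers summed to 1787 FPKM, against 303 to 453 FPKM in the other 4 mice, and its neutrophil markers to 192 FPKM, against 6.57 to 52.4 FPKM. Its 10 chemokines summed to 339 FPKM, against 59.1 to 93.5 FPKM. In WT mice 1 of the 8 monocyte and macrophage markers tested (Lyz2) and 5 of 5 fat markers were called higher under Ang II. Of 4 endothelium markers Kdr and Cdh5 were called higher, while Pecam1 (-0.85) and Vwf (-0.19) were lower without being called. The endothelium sums overlapped, at 79.8 to 229 FPKM under saline and 93.9 to 157 FPKM under Ang II. Of 5 smooth muscle markers Tagln and Cnn1 were called lower. What these cells contribute was not tested.

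**Figure D2:**
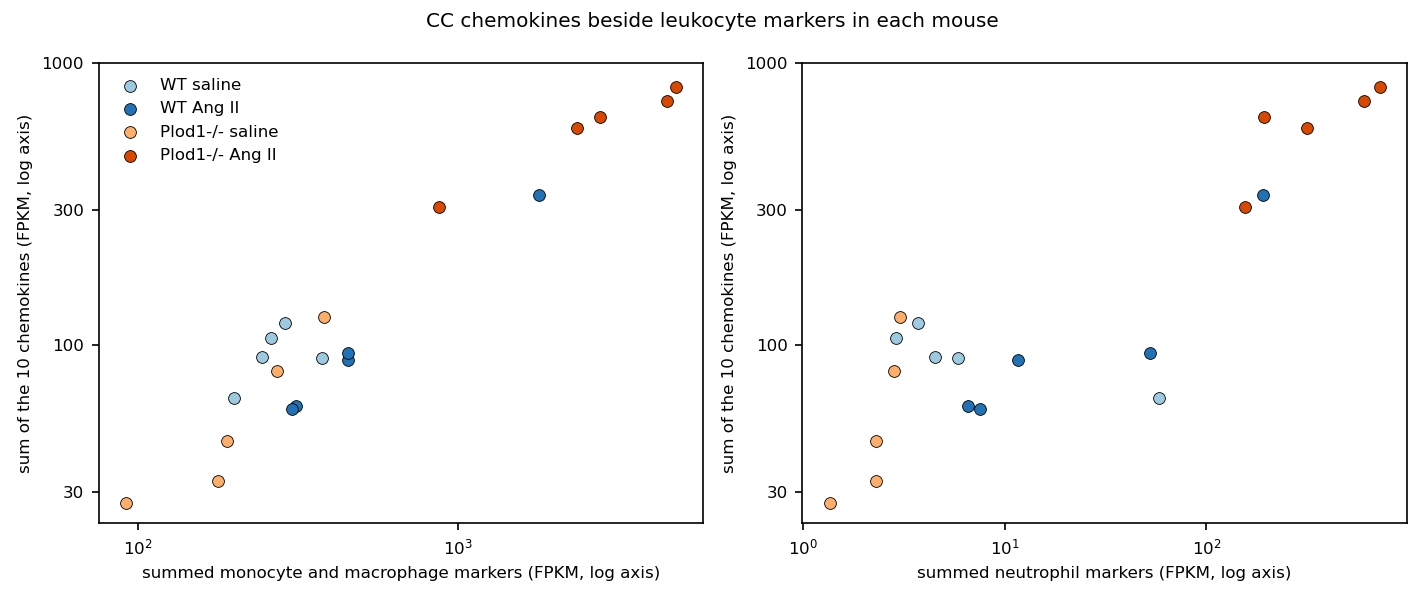
Sum of the 10 CC chemokines in each mouse (FPKM, log axis) against the summed monocyte and macrophage markers (left) and neutrophil markers (right), both in FPKM on log axes, with a colour for each of the 4 groups. The Ang II-treated Plod1-/- mice and WT Ang II replicate 1 lie at 308 FPKM of chemokines or more, and all other mice at 125 FPKM or less.

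Plod1-/- and WT mice were next compared under Ang II. In Plod1-/- mice 8 of the 10 members were called higher and Ccl11 lower, and 7.45% of the 12356 genes tested were called higher and 3.67% lower. The median log2 difference was 2.60 over the members and 0.12 over all genes. Ccl7 differed by 4.92 ± 0.39 (SE, adjusted p = 1.54e-04 by limma) and Ccl2 by 4.55 ± 0.44 (SE, adjusted p = 3.77e-04 by limma). The difference was 3.21 ± 0.56 (SE, adjusted p = 0.00357 by limma) for Ccl3 and 2.84 ± 0.45 (SE, adjusted p = 0.00234 by limma) for Ccl12. In these 4 genes every Plod1-/- mouse was above every WT mouse, and 15.1% of all genes tested had groups without overlap. Without WT Ang II replicate 1, 8 members did not overlap, with Ccl6, Ccl8, Ccl9 and, in the lower direction, Ccl11 added, and the share of all genes tested was then 22.7%. Without Plod1-/- Ang II replicate 1 it was 7 members, with Ccl4, Ccl6 and Ccl9 added to the first 4, and 27.9% of all genes.

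Ccl6 differed by 2.63 ± 0.55 (SE, adjusted p = 0.00715 by limma) between the genotypes under Ang II, Ccl9 by 2.57 ± 0.50 (SE, adjusted p = 0.00538 by limma) and Ccl4 by 2.05 ± 0.52 (SE, adjusted p = 0.0152 by limma). Only Plod1-/- replicates 2 to 5 and WT replicate 5 reached 1 FPKM for Ccl4. It was therefore tested in 5 of 10 fits that left out 1 mouse, and called in those 5. For Ccl8 the mean was 27.7 ± 29.2 FPKM in WT against 72.7 ± 38.7 FPKM without LH1 (SD, n = 5 each), and the log2 difference was 1.80 ± 0.61 (SE, adjusted p = 0.0435 by limma). That call was lost in 8 of 10 fits that left out 1 mouse (limma adjusted p = 0.0553 to 0.105), among them the one without the Xist library, and held without WT replicate 1 (2.30, limma adjusted p = 0.0065) or Plod1-/- replicate 2. Ccl11 averaged 16.4 ± 6.42 FPKM in WT against 7.12 ± 1.64 FPKM without LH1 (SD, n = 5 each), a difference of -1.02 ± 0.28 (SE, adjusted p = 0.0191 by limma). Without the Xist library, WT replicate 2, 4 or 5, or Plod1-/- replicate 5 it was between -1.0 and -0.86 and no longer called. Ccl5 differed by 0.50 ± 0.25 (SE, adjusted p = 0.153 by limma), with a 95% confidence interval of -0.059 to 1.05.

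In the same comparison 9 of 10 monocyte and macrophage markers and 5 of 5 neutrophil markers tested were called higher in Plod1-/- mice, and 2 fat markers, Ucp1 and Cox8b, lower. Ly6c2, of the monocyte and macrophage list, was not called (0.55 ± 0.41 SE, adjusted p = 0.322 by limma). For Itgam, Csf3r, Cxcr2 and Retnlg the Plod1-/- mice alone met the filter, with lowest values of 3.74, 4.28, 1.48 and 10.7 FPKM. The lowest WT values were 0.535, 0.570, 0.114 and 0.379 FPKM. All 3 red blood cell markers and F13a1 of 4 resident macrophage markers were also called higher. Smtn of 5 smooth muscle markers and Pi16 of 5 fibroblast markers were called lower. The other fibroblast markers were not called, with Lum (0.97) and Pdgfra (0.51) higher and Dcn (-0.65) and Dpt (-0.14) lower. Of 6 eosinophil and mast cell markers 3 were tested, the mast cell genes Cpa3, Kit and Mcpt4, and none was called. The list summed to 10.6 to 19.8 FPKM (WT) and 10.7 to 30.8 FPKM (Plod1-/-). The eosinophil genes Siglecf, Epx and Prg2 were below the filter and not tested. Siglecf was at 0 to 0.119 FPKM in WT and 0.248 to 7.27 FPKM in Plod1-/- mice, without overlap. Epx and Prg2 overlapped between the genotypes and did not exceed 0.628 FPKM. Their part in the chemokine differences was not tested.

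**Figure D3:**
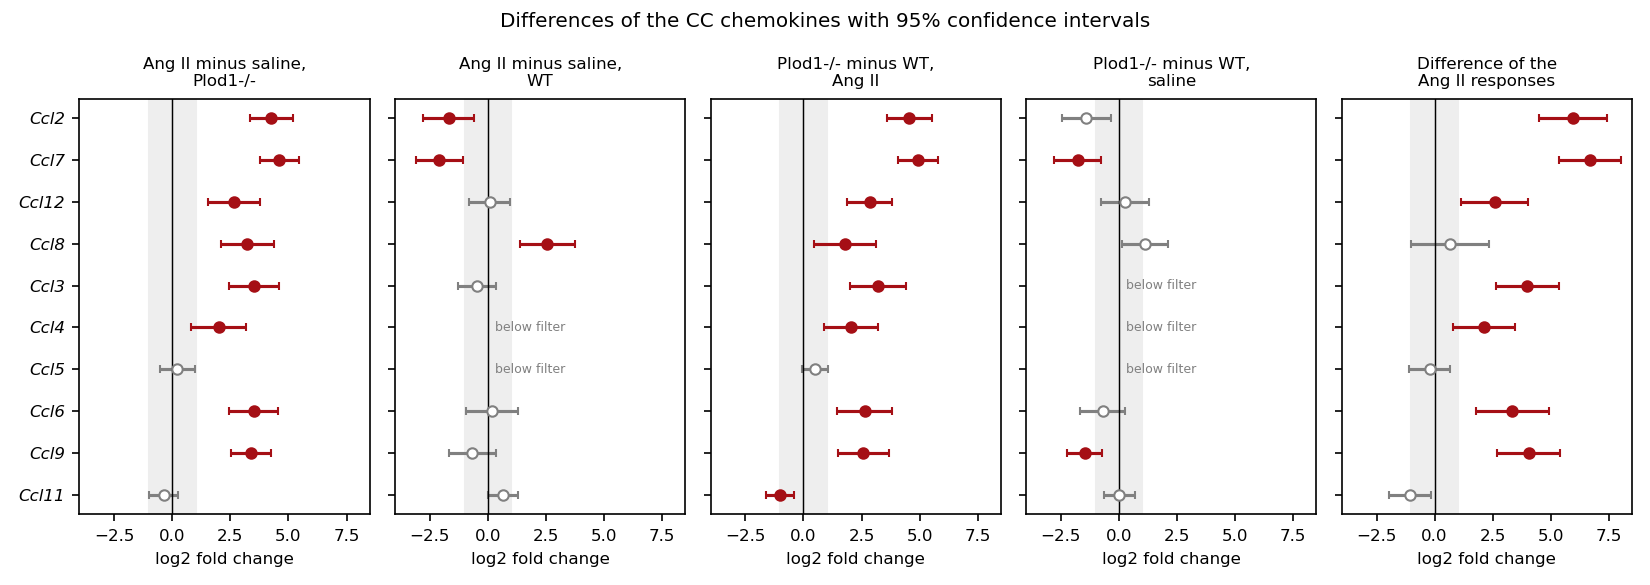
Log2 differences (horizontal axis) of the 10 CC chemokines in the 4 comparisons and the difference between the responses, with 95% confidence intervals, filled red symbols for called genes and a grey band from -1 to 1. For most members the called values lie well to the right in Plod1-/- mice under Ang II, whereas in WT mice only Ccl8 was called higher.

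Under saline, the comparison of genotypes asked what loss of LH1 did without Ang II. Of 7 members tested, Ccl7 and Ccl9 were called lower in Plod1-/- mice, and 0.408% of the 11999 genes tested were called lower. Ccl7 averaged 10.2 ± 6.72 FPKM in WT against 2.27 ± 2.35 FPKM without LH1 (SD, n = 5 each), a log2 difference of -1.77 ± 0.46 (SE, adjusted p = 0.0455 by limma). Ccl9 averaged 21.6 ± 9.76 and 7.3 ± 3.9 FPKM (SD, n = 5 each), a difference of -1.48 ± 0.35 (SE, adjusted p = 0.0353 by limma). The Ccl9 groups did not overlap, nor did those of Ccl8, which was higher in every Plod1-/- mouse without being called, and 9.52% of all genes tested had groups without overlap. Ccl8 differed by 1.12 ± 0.44 (SE, adjusted p = 0.134 by limma), and by 0.63 without Plod1-/- saline replicate 3 (limma adjusted p = 0.0666). Of the cell markers, Cd14 of monocytes and macrophages differed by -1.94 ± 0.31 (SE, adjusted p = 0.0114 by limma) and Pi16 of fibroblasts by -1.13 ± 0.26 (SE, adjusted p = 0.0344 by limma), both called lower in Plod1-/- mice, and no other listed marker was called. Monocyte and macrophage markers summed to 199.9 to 375 FPKM in WT and 91.9 to 379.9 FPKM in Plod1-/- mice, and their part in the chemokine differences was not tested.

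Neither saline call was stable. Without the Xist library the differences were -1.64 for Ccl7 (limma adjusted p = 0.0925) and -1.35 for Ccl9 (limma adjusted p = 0.0757), and each call held in 3 of 10 fits that left out 1 mouse. Ccl2 differed by -1.40 ± 0.48 (SE, adjusted p = 0.0964 by limma), and its groups overlapped. Ccl3, Ccl4 and Ccl5 were below the filter, and exact two-sided permutation tests, unadjusted, gave p = 0.0397 for Ccl3 (lower in Plod1-/- mice), p = 0.833 for Ccl4 and p = 0.0159 for Ccl5 (higher in Plod1-/- mice). Plod1-/- saline replicate 3 was the highest of its group for 8 members, all but Ccl9 and Ccl11.

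Whether the response to Ang II differed between the genotypes was tested as an interaction over all 20 mice. It was called positive for 7 members and for 9.69% of the 13263 genes tested. The responses of Ccl7 differed by 6.69 ± 0.64 (SE, adjusted p = 6.75e-06 by limma) and those of Ccl2 by 5.96 ± 0.69 (SE, adjusted p = 2.04e-05 by limma), the members called lower in WT and higher in Plod1-/- mice. For Ccl9 the value was 4.05 ± 0.65 (SE, adjusted p = 2.09e-04 by limma), for Ccl3 3.99 ± 0.65 (SE, adjusted p = 2.47e-04 by limma) and for Ccl6 3.34 ± 0.75 (SE, adjusted p = 0.0026 by limma). For Ccl12 and Ccl4 it was 2.59 and 2.13. These calls held in all 20 fits that left out 1 mouse. Ccl8 had an interaction of 0.67 ± 0.80 (SE, adjusted p = 0.525 by limma), with a 95% confidence interval of -1.0 to 2.35. Ccl11 had one of -1.04 ± 0.43 (SE, adjusted p = 0.0633 by limma), which was -1.16 and called without both Xist libraries (limma adjusted p = 0.0446) and -1.30 and called without WT Ang II replicate 1 (limma adjusted p = 0.0122). For Ccl5 it was -0.21 ± 0.42 (SE, adjusted p = 0.717 by limma). The interaction was also called positive for 9 of 10 monocyte and macrophage, 5 of 5 neutrophil and all 3 red blood cell markers tested. For Itgam, Csf3r, Cxcr2 and Retnlg the Ang II-treated Plod1-/- mice alone met the filter here too. Cxcr2 was at 1.48 FPKM or more in these mice and did not exceed 1.32 FPKM in any other group. Ly6c2, of the monocyte and macrophage list, was not called (0.43 ± 0.46 SE, adjusted p = 0.475 by limma). The interaction was called positive for F13a1 of 4 resident macrophage and Pdgfra of 5 fibroblast markers as well. For 3 of 5 fat and 2 of 5 smooth muscle markers it was called negative. The part of these cells was not tested.

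**Figure D4:**
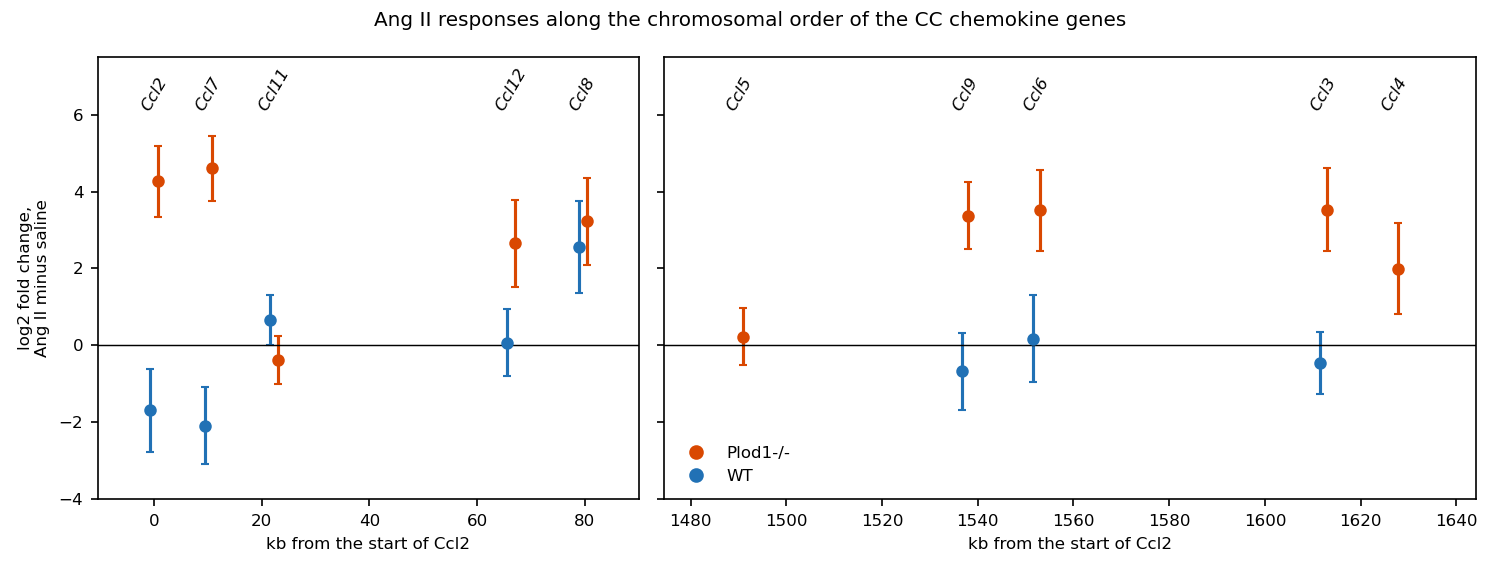
Log2 difference between Ang II and saline (vertical axis, with 95% confidence intervals) of each CC chemokine in Plod1-/- (orange) and WT mice (blue), against distance from the start of Ccl2 in kb, with a panel for each stretch and the genotypes drawn slightly apart. Ccl2 and Ccl7 moved in opposite directions in the genotypes, Ccl8 rose in both, and Ccl11, between them, was called in neither.

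Neighbouring genes did not all have like profiles. Counted from the start of Ccl2, Ccl7 begins at 10.1 kb, Ccl11 at 22.3 kb, Ccl12 at 66.3 kb and Ccl8 at 79.6 kb, and Ccl11 was the one of these not called with Ang II in either genotype. Likeness was taken as the root mean square difference of z-scaled log2(FPKM + 1) over the 20 mice, where 0 is identity. Of all pairs of members, Ccl2 and Ccl7 were most alike (0.151), then Ccl6 and Ccl9 (0.289), and Ccl7 and Ccl11 were least alike (1.68). Over all mice Ccl7 was 0.663 to 1.88 times Ccl2. Ccl6 was 1.44 to 2.41 times Ccl9 in saline-treated and 2.59 to 4.0 times in Ang II-treated WT mice, without overlap. Ccl12 was 0.433 to 1.49 times Ccl8 in saline-treated and 0.0415 to 0.173 times in Ang II-treated WT mice, also without overlap. In Plod1-/- mice both ratios overlapped between saline and Ang II, at 2.1 to 4.49 and 2.84 to 4.01 for Ccl6 over Ccl9 and 0.176 to 0.695 and 0.16 to 0.709 for Ccl12 over Ccl8.

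By the same measure, over 13217 other genes, the profiles most like that of Ccl2 were those of Nras, Tpm3 and Eif4a1 (0.25 to 0.261), and for Ccl7 those of Eif4a1, Surf4 and Nans. Ccl3 was most like Cxcl2, which encodes a neutrophil attractant (0.192), followed by Osm, a cytokine of the interleukin-6 family, and Prcp. For Ccl6 the nearest were Ms4a6b, Ms4a6d and Ms4a6c, and for Ccl9 they were Ms4a6d, Pf4 and Cd53, with Ms4a6d at 0.148. Ccl12 was nearest to Cd52, Slfn1 and Aif1, of which Aif1 encodes a macrophage protein. Ccl8 was nearest to Upp1, Akr1b8 and Cxcl14, and Ccl4 to Akr1a1, Gpr132 and Gm4739. Less close were the nearest genes of Ccl5, Ubd, Tap1 and Calhm6 (0.525 to 0.529), and of Ccl11, Gm9824, Mrpl49 and Tecr (0.625 to 0.67). The 20 points share their groups, so these values only describe likeness.

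**Figure D5:**
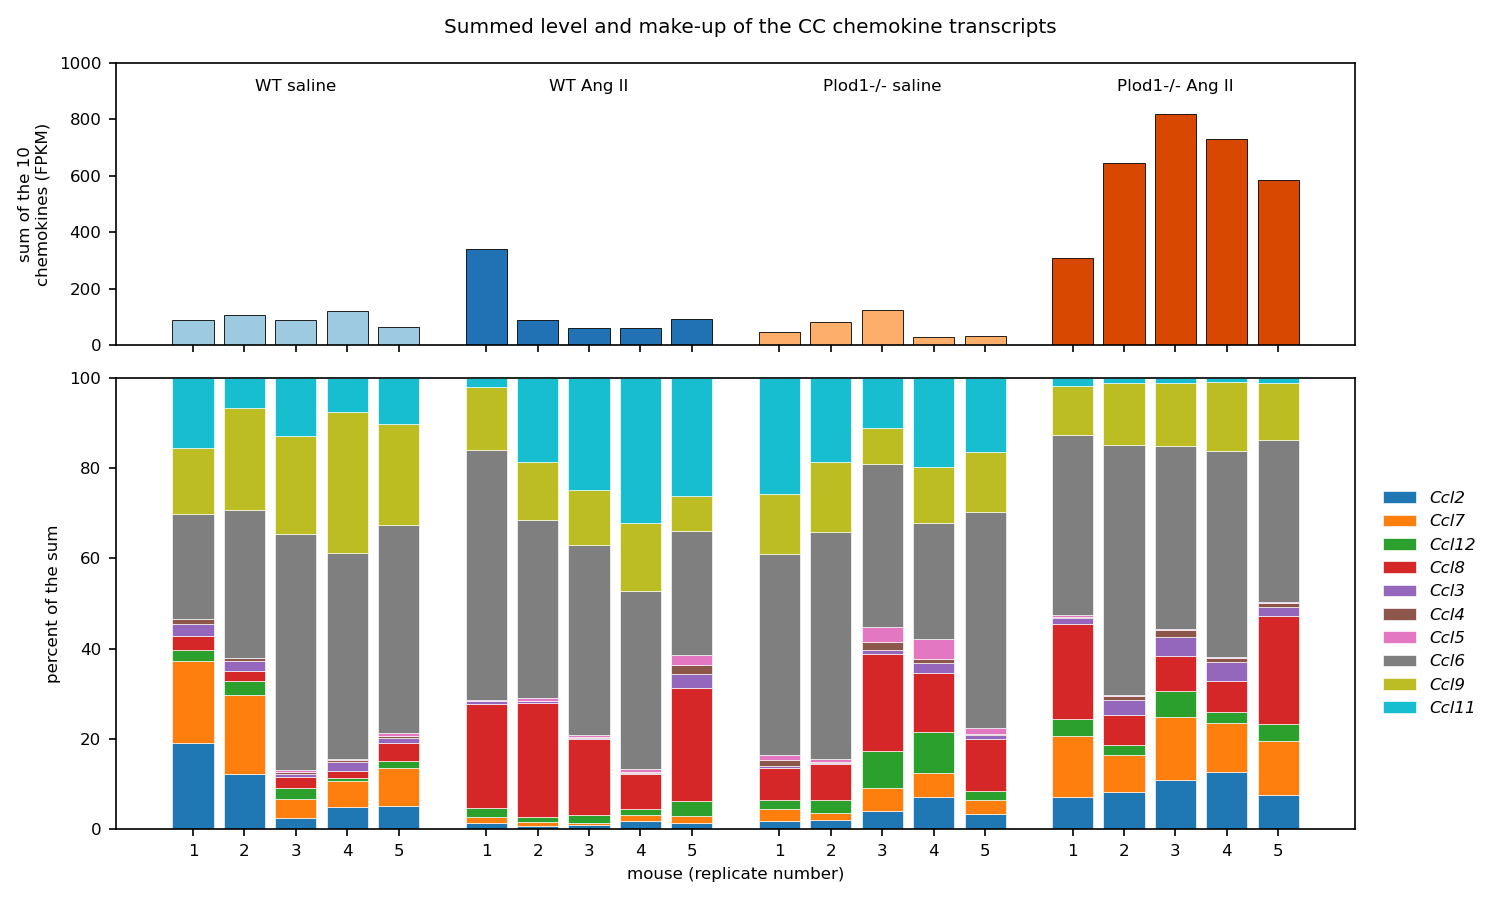
Sum of the 10 CC chemokines in each mouse (upper panel, FPKM) and the percent of that sum from each member (lower panel), with mice by replicate number in the 4 groups. Ccl6 takes the largest mean share in every group, and Ccl11 takes less than 2% in each Ang II-treated Plod1-/- mouse.

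Since FPKM is per length, members can be given as shares of their sum. Ccl6 made up 40% ± 11.8 of it in WT mice under saline and 40.7% ± 9.995 under Ang II, and 40.9% ± 10.01 and 43.5% ± 7.52 in Plod1-/- mice (SD, n = 5 each). These means lay within the spread between mice. The share of Ccl2 was 8.72% ± 6.82 under saline and 1.22% ± 0.463 under Ang II in WT, and 3.66% ± 2.1 and 9.25% ± 2.37 in Plod1-/- mice (SD, n = 5 each). That of Ccl8 was 2.63% ± 0.931 and 19.6% ± 7.52 in WT, and 12.2% ± 5.72 and 13.3% ± 8.42 in Plod1-/- mice (SD, n = 5 each). Ccl11 made up 10.6% ± 3.76 and 20.8% ± 11.5 in WT, and 18.3% ± 5.32 and 1.23% ± 0.38 in Plod1-/- mice (SD, n = 5 each), so that its own share was lowest in Ang II-treated Plod1-/- mice. The shares were not tested.

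The members were also set against the summed monocyte and macrophage markers, a measure chosen after the values were seen and not tested. Lyz2 was the largest part of this sum in every group, but not an equal part. It averaged 103 of 274 FPKM in saline-treated WT and 1892 of 3055 FPKM in Ang II-treated Plod1-/- mice. The ratios are therefore to the RNA of these markers and not to numbers of cells. For each 100 FPKM of these markers Ccl6 was at 5.54 to 19.2 FPKM in saline-treated WT, 5.65 to 10.5 in Ang II-treated WT, 7.69 to 14.9 in saline-treated Plod1-/- and 6.92 to 14.2 in Ang II-treated Plod1-/- mice, so that all 4 groups overlapped. In the same order Ccl2 was at 0.874 to 4.9, 0.138 to 0.364, 0.456 to 2.11 and 1.86 to 2.54. By this ratio the Ang II-treated Plod1-/- mice were above the Ang II-treated WT mice without overlap, and within the range of saline-treated WT mice. Ccl7 was at 1.58 to 7.09, 0.108 to 0.312, 0.465 to 1.7 and 1.77 to 4.79. Ccl11 was at 0.151 to 0.667 in Ang II-treated Plod1-/- mice, below both saline groups (2.66 to 4.74 in WT and 3.01 to 6.17 in Plod1-/-) and overlapping the Ang II-treated WT mice (0.387 to 6.27).

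Other genes of the system were taken from a list. Of 10 CC receptors 2 reached the filter in Plod1-/- mice, both through the Ang II-treated mice alone, since every saline value was below 1 FPKM. A difference was therefore built into their being tested. Ccr1, a receptor for CCL3 and CCL9, averaged 0.315 ± 0.166 FPKM under saline and 24.8 ± 17.2 FPKM under Ang II (SD, n = 5 each), a log2 difference of 3.95 ± 0.49 (SE, adjusted p = 1.89e-04 by limma). Ccr2, the receptor for CCL2, CCL7 and CCL12, averaged 0.244 ± 0.0825 and 5.52 ± 3.37 FPKM (SD, n = 5 each), a difference of 2.22 ± 0.34 (SE, adjusted p = 5.67e-04 by limma). Ccr3, the receptor for CCL11, had no value above 0.161 FPKM in any mouse. In WT mice 1 receptor, Ccr10, was tested and not called, and Ccr1 averaged 0.695 FPKM under saline and 1.03 FPKM under Ang II. Between the genotypes under Ang II Ccr1, with a log2 difference of 3.52 ± 0.57 (SE, adjusted p = 0.00255 by limma), and Ccr2, with a log2 difference of 1.93 ± 0.40 (SE, adjusted p = 0.00675 by limma), were called higher in Plod1-/- mice. The Plod1-/- mice alone met the filter here too, with lowest values of 4.24 FPKM (Ccr1) and 1.30 FPKM (Ccr2). The highest WT values were 3.55 and 1.80 FPKM.

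Of 10 other CC ligands 3 were tested, Ccl19, Ccl24 and Ccl27a. In Plod1-/- mice under Ang II, Ccl24, which encodes another CCR3 ligand, was called higher, by 1.88 ± 0.35 (SE, adjusted p = 0.00174 by limma). Ccl27a, which encodes a ligand of CCR10, averaged 8.14 FPKM under saline and 2.62 FPKM under Ang II and was called lower, with a difference of -1.36 ± 0.14 (SE, adjusted p = 6.81e-05 by limma). Neither was called in WT mice. The same calls were made between the genotypes under Ang II, where Ccl24 was higher by 1.64 ± 0.35 (SE, adjusted p = 0.00798 by limma) and Ccl27a had a difference of -1.23 ± 0.21 (SE, adjusted p = 0.00339 by limma). In the interaction Ccl24 and Ccl19, which encodes a CCR7 ligand, were called positive and Ccl27a negative, with a value for Ccl19 of 1.43 ± 0.34 (SE, adjusted p = 0.00329 by limma). Of 4 atypical and related receptors 3 were tested, and Ackr1, which binds chemokines on venular endothelium without signalling, was called higher in Plod1-/- mice, by 1.74 ± 0.33 (SE, adjusted p = 0.00194 by limma). Between the genotypes under Ang II it differed by 0.54 ± 0.45 (SE, adjusted p = 0.374 by limma).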

How the data were processed

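The authors removed ribosomal reads, aligned the rest to mm10 with HISAT2, assembled transcripts with stringtie and made FPKM values with cuffquant and cuffnorm, depositing 1 file for each mouse. The submitters' processing notes name HISAT2 2.1.0, Bowtie2 2.2.3 and HTSeq 0.6.0. Of 43422 gene IDs, 43226 matched GENCODE M21 (GRCm38), the source of names and positions. The files hold no counts, so depth is unknown and no counting interval is given. Steps in the low values put relative depth at 0.90 to 1.09.

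Groups came from the labels. Each comparison was fitted to log2(FPKM + 1) of its 2 groups, and the interaction to all 4, with limma 3.58.1 (R 4.3.3, empirical Bayes with a variance trend). Genes reaching 1 FPKM in at least 5 mice were tested, and p-values were adjusted over all of them. Members below the filter were compared by exact permutation (scipy 1.17.1, Python 3.11.15), whose smallest two-sided p is 0.00794. The exact tests were not adjusted. The fits were tested on simulated data. Promoters were aligned with Biopython 1.88.

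The members, marker lists and lists of related genes were chosen with earlier results of these data known. Named genes are all members, the receptors Ccr1, Ccr2 and Ccr3, every called gene of the related lists, Plod1 and Xist as checks, and the 3 genes nearest each member by root mean square difference. A receptor gene that the rule also named is not reported here. Alternatives changed the pseudocount, filter, variance trend, scaling or weights, added the replicate number as a block, pooled the groups in 1 fit, or left out mitochondrial genes, both libraries with Xist RNA or each mouse.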

Additional observations from a re-analysis of the deposited data

Results flagged for a closer look

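In 14 of 40 sets of 5 mice (10 members in 4 groups), 1 mouse lay far from the others by Dixon's criterion at the 95% level. Normally distributed values meet it in about 1 set in 20. It was applied to FPKM and not to log2(FPKM + 1), and all 14 flags were of the highest value. Values skewed to the high side meet it more often, so the 14 cannot be set against that rate. The sets are not independent, since members vary together in a mouse. WT Ang II replicate 1 stood high for Ccl2 (4.63 FPKM), Ccl6 (188 FPKM), Ccl7 (4.78 FPKM), Ccl8 (78 FPKM) and Ccl9 (46.9 FPKM). Its monocyte and macrophage markers, at 1787 FPKM, were also above those of the other 4 mice (303 to 453 FPKM). Plod1-/- saline replicate 3 stood high for Ccl2 (4.92 FPKM), Ccl4 (2.31 FPKM), Ccl5 (4.05 FPKM), Ccl7 (6.47 FPKM), Ccl8 (26.9 FPKM) and Ccl12 (10.1 FPKM). Its monocyte and macrophage markers summed to 379.9 FPKM, against 91.9 to 271 FPKM in the other 4. WT Ang II replicate 5 stood high for Ccl4 (2.02 FPKM), Plod1-/- Ang II replicate 5 for Ccl8 (140.0 FPKM) and Plod1-/- Ang II replicate 3 for Ccl11 (9.96 FPKM). The part of cell composition in these values was not tested.

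The response to Ang II differed between the genotypes, by the interaction test in limma, for 7 members. The log2 difference of the responses was 5.96 for Ccl2 (adjusted p = 2.04e-05), 3.99 for Ccl3 (adjusted p = 2.47e-04), 2.13 for Ccl4 (adjusted p = 0.0145), 3.34 for Ccl6 (adjusted p = 0.0026), 6.69 for Ccl7 (adjusted p = 6.75e-06), 4.05 for Ccl9 (adjusted p = 2.09e-04) and 2.59 for Ccl12 (adjusted p = 0.00716). It was positive, that is higher in Plod1-/- mice, for each of them.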

How the results depend on the processing

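Of 1019 results recomputed under another setting, 931 kept their direction and side of the threshold (counts within 1.5 times), 48 lost their call, 10 gained one, 15 counts moved and 15 reversed. All reversals were of differences that were not called. With weights per mouse Ccl6 in WT was -0.23 and Ccl11 under saline -0.033. Leaving out 1 mouse at a time gave -0.38 to 0.36 for Ccl6 and -0.27 to 0.25 for Ccl12 in WT, -0.13 to 0.20 for Ccl11 and -0.18 to 0.51 for Ccl12 under saline, and -0.34 to 0.11 for the interaction of Ccl5. The 2 members called under saline became 0 with no filter, with all groups in 1 fit, with the replicate block or without both Xist libraries, 1 with weights or quantile normalization, and 0 to 2 without 1 mouse. The cause was not tested.

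Over all genes, calls under saline went from 92 to 149 (pseudocount 0.1), 41 (no filter), 57 (1 fit), 60 (Xist libraries left out) and 38 to 60 (without WT saline replicate 2 or 1 of Plod1-/- saline replicates 2 to 5), and calls between genotypes under Ang II from 1373 to 2134 with weights. Quantile normalization changed the higher and lower calls from 920 and 453 to 744 and 612 there, and from 1285 and 844 to 1020 and 1095 for the interaction, with medians over all genes of 0.12 and -0.026, and 0.12 and -0.0087. Of the 30 genes nearest a member, 23 were shared with the list made with a pseudocount of 0.1.

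The labels do not say that replicate numbers pair the mice, and the main fits did not use them as pairs. Correlations of deviations between same-numbered mice ran from -0.37 to 0.43, and at most 2 of 5 pairs in a comparison exceeded 0.1. Those 2 were replicates 2 and 3 of the Plod1-/- mice (0.43 and 0.40 between saline and Ang II), each best matched with its own number. With 5 pairs in a comparison, these values do not settle whether the mice were paired. With the replicate block the members called were 8, 3, 9, 0 and 7 for Ang II in Plod1-/- mice, Ang II in WT mice, genotype under Ang II, genotype under saline and the interaction.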
